A study of Mus musculus with 8 samples.

Results

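The matrix metalloproteases (MMPs), the ADAM and ADAMTS proteases, the ADAMTS-like proteins and the tissue inhibitors of metalloproteases (TIMPs) were followed in mouse hepatocytes exposed to shear stress, the drag of a moving fluid on the cell surface, and in hepatocytes kept static. Members were all genes whose symbol begins with Mmp, Adam, Adamts, Adamtsl or Timp followed by a digit. There were 65 among the 17276 genes measured: 18 MMPs, 21 ADAMs, 17 ADAMTS, 5 ADAMTS-like genes and 4 TIMPs. Libraries were made from total RNA with phi29 reagents, 4 from shear stress cells and 4 from static cells. All cells were WT hepatocytes of male C57BL/6N mice 6 to 8 weeks of age, and the treatment (shear stress or static) is the label that separates the groups. The labels do not give the strength or length of the flow. Nor is it stated if replicate libraries stem from separate animals or cultures, so the p-values measure the spread between these libraries, which may be technical.

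MMPs, ADAMs and ADAMTS proteases are zinc enzymes that are made as inactive precursors. MMPs cut the matrix around cells, and the membrane-type MMPs do so at the cell surface. ADAMs are mostly membrane proteins that release (shed) the outer parts of other membrane proteins, such as growth factors, cytokine receptors, cadherins and Notch. ADAMTS proteases are secreted, and some of them cut matrix proteoglycans, while the ADAMTS-like proteins have no protease domain. TIMPs bind and block the active enzymes. In liver, these proteins are best known from fibrosis and regeneration, where stellate cells and macrophages make many of them.

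The libraries held between 16225843 and 16732203 estimated counts in the shear stress group and between 15067056 and 17935566 in the static group, and the members took between 0.0539% and 0.0567% of these counts under shear stress and between 0.0648% and 0.0768% in static culture. Hepatocyte markers were abundant in every library, with a sum over 10 genes of 57310 to 73384 CPM (TMM-normalised counts relative to library size) under shear stress and 81275 to 102382 CPM in static culture. Of the 10, 7 were lower under shear stress while none was higher, where 23.7% of all genes tested were lower and 24.9% higher. Of the 10 genes listed as markers of neutrophils, 6 were in the files, none had enough counts to be tested, and together they reached at most 0.261 CPM in a shear stress library and 0.308 CPM in a static library. Of the 9 Kupffer cell and macrophage markers in the files only Cd68 was tested, at 36.7 CPM under shear stress and 40.5 CPM in static culture. The other 8 included Adgre1 (0.0723 and 0.0379 CPM), Csf1r (0.0855 and 0.0449 CPM) and Lyz2 (0.185 and 0.178 CPM). Stellate cell and fibroblast markers summed to 7.21 to 10.3 CPM under shear stress and 6.12 to 12.7 CPM in static culture, and 2 of 10 were tested and neither was called. Endothelial markers summed to 12.2 to 34.5 CPM and 15.7 to 30.6 CPM, and 1 of 8 tested was lower and none was higher. Cholangiocyte markers summed to 216 to 1710 CPM and 133 to 1327 CPM, with 0 of 4 tested called. The 5 lymphocyte markers in the files summed to 0.0566 to 0.470 CPM under shear stress and 2.04 to 2.56 CPM in static culture, and the 1 tested, the B cell gene Cd79a, was lower. The 2 mesothelial markers in the files summed to at most 0.209 CPM under shear stress and 0.291 CPM in static culture. With the replicate block, 9 hepatocyte markers were lower, the cholangiocyte markers Spp1 (adjusted p = 0.0467) and Epcam (0.0499) and the endothelial marker Oit3 (0.00485) were higher, and the stellate cell marker Dcn (0.0220) was lower, all by edgeR. That fit called 30.1% of all genes tested higher and 31.0% lower. The part of these marker differences in the results on the proteases was not tested.

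Under shear stress the transcripts of the sheddase Adam10, the leukocyte-type sheddase Adam8, the membrane-type protease Mmp24 and the matrix protease Adamts10 rose, and those of Adamts1, Adam17 and Adam9 fell. Each change is given on the log2 scale, shear stress relative to static, with its standard error from the quasi-likelihood test of edgeR, and a gene is called at a Benjamini-Hochberg adjusted p below 0.05 over all genes tested. Of the 65 members, 20 had enough counts to be tested, 4 were called higher, 3 lower and 13 were not called. That is 35.0% of the tested members, against 48.6% of all 11747 genes tested. Calls of higher expression came to 20% of tested members, against 24.9% of all genes, and calls of lower expression to 15%, against 23.7%. With the replicate number as a block, 5 members were higher and 4 lower, where 30.1% of all genes were higher, 31.0% lower and 61.1% called in either direction. The median log2 fold change was 0.01 over the tested members and -0.01 over all genes. The libraries of the 2 groups did not overlap for 7 tested members, against 45.3% of all tested genes. These shares lay below those of all genes, and what follows concerns single members. Of the 20 tested members, 16 passed the filter on low counts (0.598 CPM) in all 8 libraries, Adamts10 in 4 shear stress and 2 static libraries, Timp3 in 4 shear stress and 3 static libraries, Adam1a in 3 shear stress and 4 static libraries, and Adamts4 in 3 shear stress libraries and 1 static library. Scaling bears on the small falls: with upper quartile factors or library totals, which moved the median of all genes by 0.14 and 0.22, 4 members were higher and only Adamts1 was lower. In these RNA samples, fewer cells of a type and less RNA per cell cannot be told apart.

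**Figure D1:**
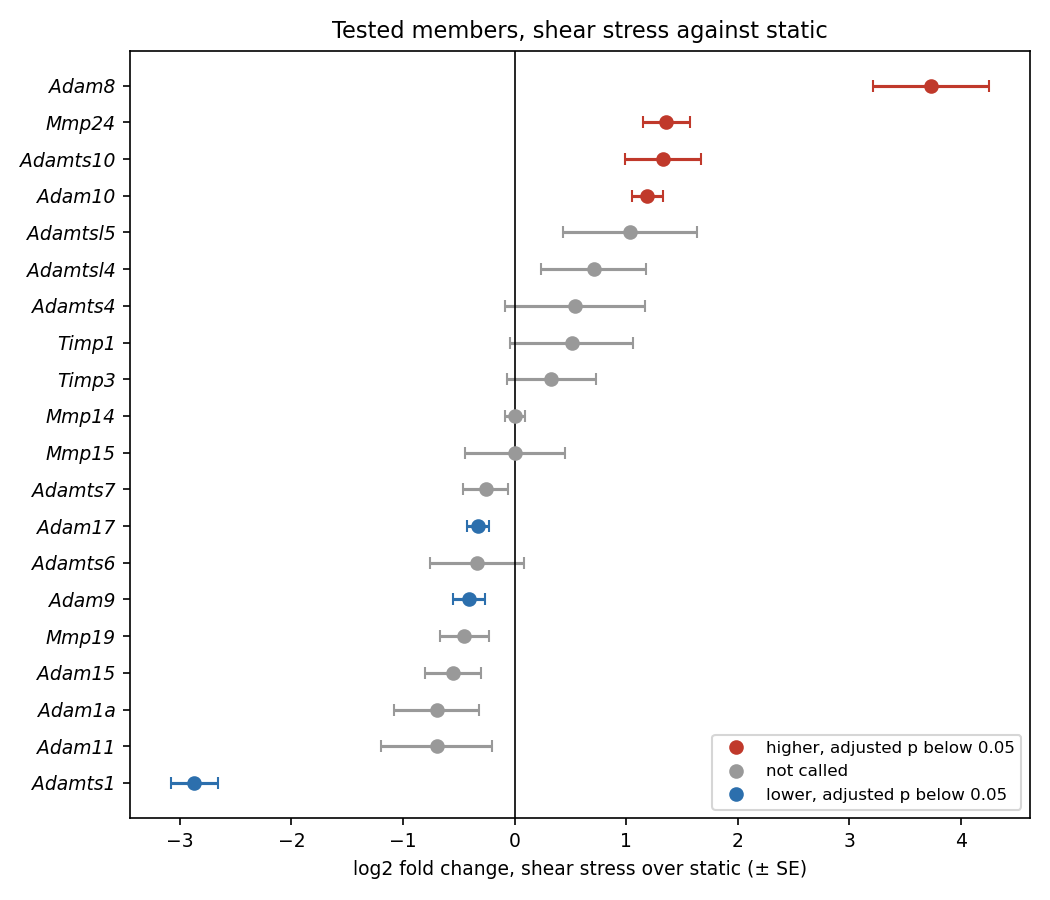
Log2 fold change of shear stress over static (horizontal axis) with standard error for the 20 tested members, sorted by value. Red marks the 4 members called higher, blue the 3 called lower and grey the 13 not called. Adam8 lies at 3.73 and Adamts1 at -2.87, and Mmp14 lies at 0.0065.

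The order of abundance differed between the groups. On the deposited TPM scale, which corrects for transcript length, Mmp14 led in all 4 shear stress libraries with a mean of 54.8 ± 5.59 TPM (SD, n = 4), followed by Adam9 with 41.9 ± 5.68, Adam10 with 26.7 ± 4.76, Adamts1 with 14.4 ± 2.60 and Adam17 with 11.7 ± 1.02 TPM. In all 4 static libraries Adamts1 led with a mean of 88.9 ± 23.3 TPM, followed by Adam9 with 47.9 ± 3.65, Mmp14 with 46.5 ± 4.78, Adam17 with 12.5 ± 1.63 and Adam10 with 10 ± 1.24 TPM. Neighbours in these orders whose libraries overlapped were Adamts1 and Adam17 under shear stress, and Adam9 and Mmp14 as well as Adam17 and Adam10 in static culture. Adamts1 made up 5.21% to 8.43% of the TPM summed over all members in the shear stress libraries and 29.3% to 46.9% in the static libraries. The share of Adam10 was 13.3% ± 2.28 under shear stress and 4.27% ± 0.795 in static culture. Summed by family, ADAMTS transcripts averaged 20.9 ± 3.81 TPM under shear stress and 95.3 ± 23.9 TPM in static culture, ADAM transcripts 92.0 ± 8.49 and 73.4 ± 4.48 TPM, MMP transcripts 73.5 ± 4.63 and 59.9 ± 3.54 TPM, and TIMP transcripts 8.33 ± 4.70 and 5.12 ± 1.99 TPM. These sums are descriptions and were not tested. Deposited TPM, like deposited FPKM, does not carry the TMM factors. In the fits of FPKM the median log2 fold change of all genes was 0.20 and 0.15 (pseudocounts 0.1 and 1), against -0.01 with TMM. Mmp14 averaged 54.8 TPM under shear stress and 46.5 TPM in static culture, while its log2 fold change with TMM was 0.0065.

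**Figure D2:**
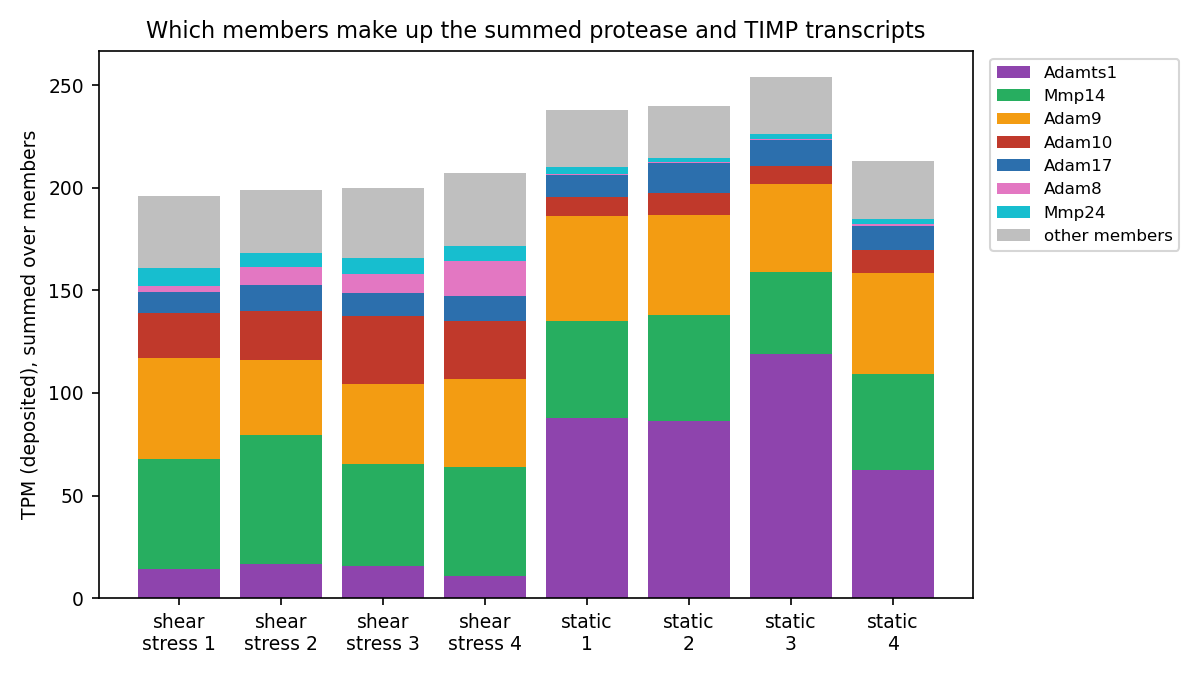
Deposited TPM summed over the 65 members in each library (vertical axis), with the 7 members named in the legend coloured and the rest grey. Adamts1 is the largest block in every static library and a small one in every shear stress library, where Mmp14 and Adam9 are the largest blocks.

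Among the ADAMs, the 2 main sheddases went in opposite directions. Adam10 (Gene ID 11487; chromosome 9, 70678944 to 70780229, GRCm38), the enzyme that releases the outer parts of Notch, cadherins and the amyloid precursor, had 70.4, 67.1, 96.7 and 87.8 CPM in shear stress replicates 1 to 4, against 33.0, 35.3, 32.4 and 40.4 CPM in static replicates 1 to 4. The lowest shear stress library was above the highest static one. Adam10 thus rose 2.28-fold (1.19 ± 0.14, adjusted p = 0.000204, edgeR). Adam17 (Gene ID 11491; chromosome 12, 21323509 to 21373632), the TNF-α converting enzyme, had 31.7, 33.7, 32.8 and 36.7 CPM under shear stress, against 38.4, 45.6, 44.3 and 41.5 CPM in static culture. Its groups did not overlap either, and it fell 1.26-fold (-0.33 ± 0.10, adjusted p = 0.018, edgeR). This small fall was not called with upper quartile factors (-0.19, adjusted p = 0.112), library totals (-0.11, adjusted p = 0.437), FPKM (-0.11 and -0.10, adjusted p = 0.477 and 0.474 with pseudocounts of 0.1 and 1) or without shear stress replicate 1 (-0.28, adjusted p = 0.0697). Adam17 also overlaps Iah1 on the opposite strand, whose own change was -0.38 ± 0.22 (adjusted p = 0.173), and the strand of the reads is not stated. A ratio within a library does not depend on the scaling: the counts of Adam10 per count of Adam17 were 2.22, 1.99, 2.94 and 2.39 in the shear stress libraries and 0.857, 0.774, 0.732 and 0.973 in the static libraries. Adam10 therefore had more counts than Adam17 in every shear stress library and fewer in every static library. This ratio was chosen after the values were seen and was not tested.

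Adam8 (Gene ID 11501; chromosome 7, 139978932 to 139995207), a sheddase best known from leukocytes, had 6.13, 15.9, 18.0 and 35.6 CPM in the shear stress libraries, against 1.54, 0.989, 1.21 and 1.92 CPM in the static ones. The shear stress libraries spread widely but all lay above the static ones. Adam8 rose 13.3-fold (3.73 ± 0.52, adjusted p = 0.000562, edgeR), the largest rise among the tested members. Among the neutrophil and macrophage markers given above, Cd68 was at 36.7 CPM under shear stress and 40.5 CPM in static culture. The others were at or near 0 in both groups. Which cells gave the Adam8 transcripts was not tested. Adam8 overlaps the gene model Gm16201 on the opposite strand. Adam9 (Gene ID 11502; chromosome 8, 24949611 to 25017040), a widely made sheddase, had 138, 87.5, 100 and 117 CPM under shear stress, against 164, 136, 135 and 153 CPM in static culture. Shear stress replicate 1 reached into the static range, although each shear stress library was below the static library of the same number. Adam9 fell 1.33-fold (-0.41 ± 0.14, adjusted p = 0.0352, edgeR). It was not called with upper quartile factors (adjusted p = 0.136), with library totals (0.258), with FPKM (0.248 and 0.250), without shear stress replicate 2 (0.0847), 3 (0.085) or 4 (0.0609), or without static replicate 1 (0.0847) or 4 (0.0718).

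The other 3 tested ADAMs were scarce, at no more than 3.54 CPM in any library. Adam15, a sheddase with a disintegrin domain that binds integrins, had 0.868, 1.25, 1.10 and 1.53 CPM under shear stress, against 1.66, 1.86, 1.82 and 1.62 CPM in static culture. Its groups did not overlap, but the difference was not called (-0.55 ± 0.25, adjusted p = 0.095). Adam11, which has no catalytic activity, averaged 1.25 ± 0.622 CPM under shear stress and 2.02 ± 1.25 CPM in static culture (adjusted p = 0.276). Adam1a, a gene best known from sperm, averaged 1 ± 0.568 CPM under shear stress and 1.64 ± 0.275 CPM in static culture (adjusted p = 0.155). Adam1a overlaps Mapkapk5 on the same strand (48.8 CPM under shear stress and 71.6 CPM in static culture) and is closely related to Adam1b, so its reads are uncertain.

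**Figure D3:**
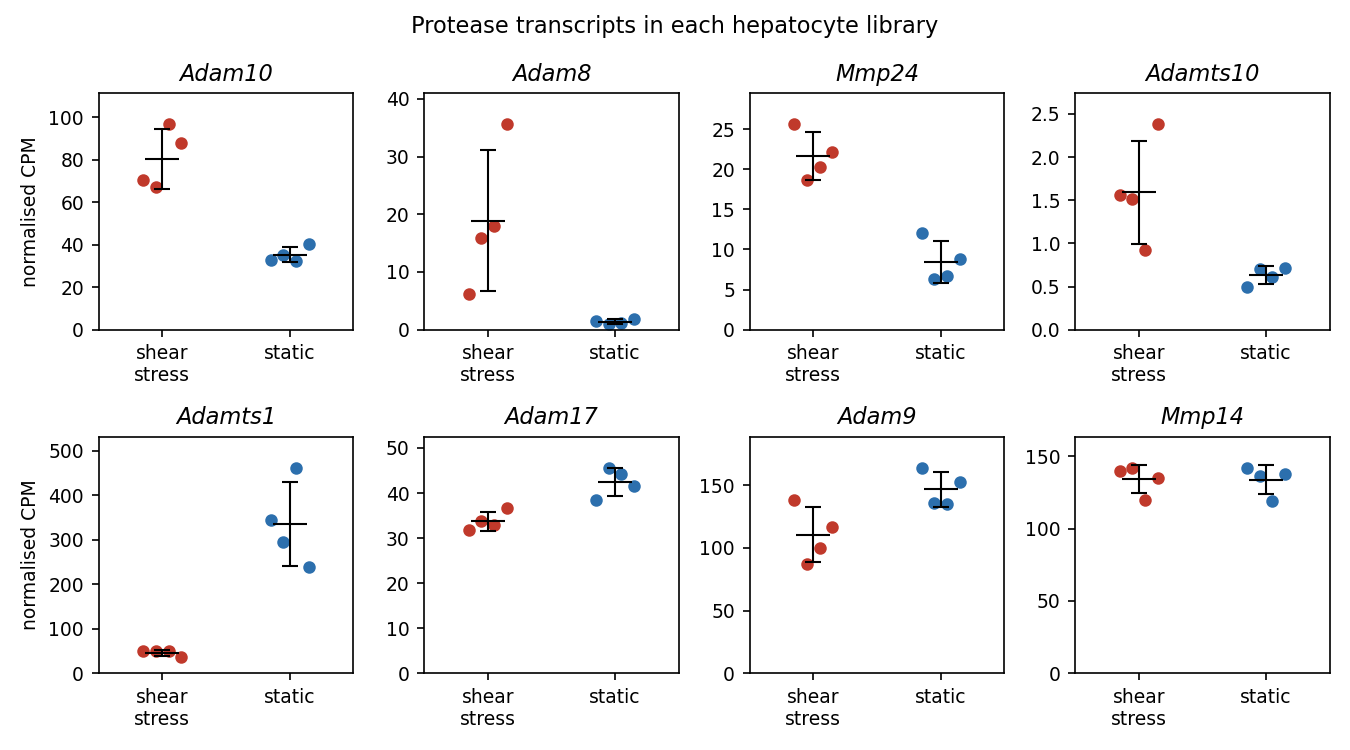
Normalised CPM (vertical axis, from 0, own scale for each gene) of the 7 called members and of Mmp14 in each of the 4 shear stress (red) and 4 static (blue) libraries. Points are libraries, and the black bars give the mean and SD. The groups are apart for Adam10, Adam8, Mmp24, Adamts10, Adamts1 and Adam17, overlap for Adam9 and lie level for Mmp14.

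Adamts1 showed the largest fall among the 20 tested members. Adamts1 (Gene ID 11504; chromosome 16, 85793827 to 85803113) encodes a secreted protease that cuts aggrecan and versican and restrains blood vessel growth. It had 48.9, 49.6, 49.1 and 35.8 CPM in the shear stress libraries, against 345, 296, 462 and 239 CPM in the static libraries. The highest shear stress library was thus far below the lowest static one. The fall was 7.31-fold (-2.87 ± 0.21, adjusted p = 4.79e-05, edgeR), and it was called in every alternative fit, with values between -3.01 and -2.51. Adamts10 (Gene ID 224697; chromosome 17, 33523646 to 33553782), which acts on fibrillin microfibrils, was scarce, with 1.56, 1.51, 0.923 and 2.38 CPM under shear stress against 0.493, 0.698, 0.606 and 0.720 CPM in static culture. It rose 2.51-fold (1.33 ± 0.34, adjusted p = 0.0102, edgeR), and it was left out under a filter of 1 CPM in 4 libraries.

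No call was made for the other ADAMTS and ADAMTS-like members. Adamts7, which cuts the cartilage matrix protein COMP, was at 12.8 to 21.6 CPM under shear stress and 16.2 to 23.2 CPM in static culture (-0.26 ± 0.20, adjusted p = 0.304). Adamts6 averaged 2.83 ± 0.844 and 3.56 ± 2.34 CPM (adjusted p = 0.525), and the aggrecanase gene Adamts4 0.675 ± 0.390 and 0.468 ± 0.332 CPM (adjusted p = 0.504). Adamts7 overlaps Tbc1d2b on the opposite strand, so its reads are uncertain, as are those of Adamts4. Adamtsl4, whose protein binds fibrillin microfibrils, averaged 5.37 ± 3.13 CPM under shear stress and 3.26 ± 1.68 CPM in static culture (adjusted p = 0.235). Adamtsl5 had 1.16, 6.58, 10.5 and 7.25 CPM under shear stress, against 1.17, 2.50, 3.94 and 4.86 CPM in static culture. Replicate 1 was lowest in either group. Without pairing the difference was not called (1.03 ± 0.60, adjusted p = 0.184), whereas with the replicate number as a block it was (0.94, adjusted p = 0.00755).

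Among the MMPs, the most abundant one was not called and a less abundant one rose. Mmp14 (Gene ID 17387; chromosome 14, 54431598 to 54442456), membrane-type 1 MMP, which cuts collagen and activates the precursor of MMP2, had 140, 142, 120 and 135 CPM under shear stress, against 142, 136, 119 and 138 CPM in static culture. Its log2 fold change was 0.0065 ± 0.09 (adjusted p = 0.961, edgeR). Mmp24 (Gene ID 17391; chromosome 2, 155775342 to 155818367), membrane-type 5 MMP, known mostly from neurons, had 25.6, 18.6, 20.3 and 22.1 CPM under shear stress, against 12, 6.28, 6.75 and 8.76 CPM in static culture. Each shear stress library was above every static library. Mmp24 rose 2.56-fold (1.36 ± 0.21, adjusted p = 0.00078, edgeR). It overlaps another gene model, BC029722, on the opposite strand. Mmp15, membrane-type 2 MMP, had 6.25, 11.9, 23.5 and 7.53 CPM under shear stress, against 6.90, 8.73, 15.5 and 17.9 CPM in static culture. The shear stress libraries alone spanned 6.25 to 23.5 CPM, and no difference was called (0.0057 ± 0.45, adjusted p = 0.994). Mmp19, a secreted MMP that cuts basement membrane proteins, had 10.4, 7.20, 10.2 and 9.79 CPM under shear stress, against 14.5, 8.09, 16.3 and 12.4 CPM in static culture. It was lower in 4 of 4 pairs of the same replicate number, was not called without pairing (-0.45 ± 0.22, adjusted p = 0.121) and was called with the replicate block (-0.42, adjusted p = 0.0244).

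Of the 4 inhibitor genes 2 were tested, and neither was called. Timp1, the TIMP that rises in injured liver (Gene ID 21857; chromosome X, 20870166 to 20874737), had 5.21, 0.835, 2.31 and 5.09 CPM under shear stress, against 3.70, 1.11, 2.12 and 2.46 CPM in static culture. Replicate 2 was lowest in either group, and the groups overlapped (0.51 ± 0.55, adjusted p = 0.466). Timp3, which binds to the matrix and also inhibits ADAM17 (Gene ID 21859; chromosome 10, 86300412 to 86349505), had 2.60, 2.04, 1.10 and 1.42 CPM under shear stress, against 1.97, 1.80, 1.29 and 0.6 CPM in static culture (0.33 ± 0.40, adjusted p = 0.518). Timp1 and Timp3 lie inside Syn1 and Syn3 on the opposite strand. Timp2 had 1, 0, 1 and 0 counts under shear stress, against 2, 5, 2 and 0 counts in static culture, and Timp4 had 0, 1, 0 and 0 counts, against 1, 0, 0 and 0 counts. Both are near the limit of 3 counts, which corresponds to 0.157 to 0.174 CPM in the shear stress libraries and 0.175 to 0.227 CPM in the static libraries.

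The other 45 members, Timp2 and Timp4 among them, were too scarce for the main test, with at most 2.83 CPM in any library. Of these, 19 had fewer than 10 counts in all 8 libraries together. Mmp2, a gelatinase that stellate cells make, had 2, 3, 1 and 1 counts under shear stress, against 4, 1, 2 and 1 counts in static culture. Adamts13, which cuts von Willebrand factor and is made by stellate cells in liver, had 1, 4.95, 1.28 and 0 estimated counts under shear stress, against 1, 1.70, 1 and 1.02 in static culture. Fitted without any filter, 3 of these 45 were called higher and 4 lower, and this fit called 35.5% of all its 17102 genes, 17.2% higher and 18.3% lower. Higher were Adam12, Mmp9 and Adam22. Adam12, a sheddase known from stellate cells and fibroblasts, had 20, 30, 7 and 50 counts under shear stress, against 1, 3, 1 and 1 counts in static culture (adjusted p = 0.000877, edgeR without a filter). Mmp9, a gelatinase known from neutrophils and macrophages, had 19, 4, 14 and 34 counts, against 2, 3, 2 and 4 counts (adjusted p = 0.00977), so that shear stress replicate 2 lay within the static range. Adam22, a receptor without catalytic activity, had 3, 16, 7 and 5 counts under shear stress, against 0, 3, 0 and 0 counts in static culture (adjusted p = 0.0252). Its groups overlapped, and replicate 2 held all static counts and 16 of the 31 shear stress counts.

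The 4 scarce members called lower without a filter were Mmp25, Adamts15, Adamts17 and Adam1b. Mmp25, a membrane-type MMP known from leukocytes, had 0, 0, 1 and 0 counts under shear stress, against 23, 11, 5 and 12 counts in static culture, a 57.6-fold lower level (exact 95% interval 9.88 to 2318, counting error only; adjusted p = 0.000515). Adamts15, a versican protease, had 1, 1, 2 and 0 counts under shear stress, against 8, 7, 7 and 5 counts in static culture (adjusted p = 0.00659). Adamts17 had no count in the shear stress libraries, against 4, 6, 2 and 1 counts in the static ones, so that it was at least 4.89-fold lower, taking 3 counts over the group as the floor (adjusted p = 0.0121). Adam1b likewise had no count under shear stress, against 18 in static culture, at least 6.77-fold lower (adjusted p = 0.00868), although its estimated counts were not whole and may be shared with Adam1a.

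The promoters of 4 members are shown, 3 that were called and Mmp14, which was not, since they differ in the classical elements near the start of transcription. They span 250 bases before and 50 bases after the start and are from RefSeq (GRCm38.p6). Capitals mark the TATA box (TATAAA), the AP-1 site (TGANTCA) and the GC box (GGGCGG), on either strand. The N stands for any base, so the AP-1 pattern is a loose one. CCGCCC is thus a GC box on the other strand, and touching boxes run together.
Adamts1 (chr16:85803064-85803363, minus strand): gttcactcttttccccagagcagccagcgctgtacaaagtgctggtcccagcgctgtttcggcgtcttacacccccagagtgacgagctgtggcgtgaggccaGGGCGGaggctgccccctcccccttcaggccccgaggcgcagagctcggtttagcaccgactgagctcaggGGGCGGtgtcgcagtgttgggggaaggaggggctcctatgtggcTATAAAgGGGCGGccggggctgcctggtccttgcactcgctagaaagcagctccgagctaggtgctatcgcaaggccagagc
Adam10 (chr9:70678732-70679031, plus strand): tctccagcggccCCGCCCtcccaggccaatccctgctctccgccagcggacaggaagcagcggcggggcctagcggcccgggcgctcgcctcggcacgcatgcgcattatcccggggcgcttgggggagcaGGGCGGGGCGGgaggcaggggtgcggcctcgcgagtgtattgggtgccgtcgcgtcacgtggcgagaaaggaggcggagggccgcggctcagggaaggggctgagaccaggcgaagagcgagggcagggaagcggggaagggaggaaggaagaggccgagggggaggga
Mmp24 (chr2:155775092-155775391, plus strand): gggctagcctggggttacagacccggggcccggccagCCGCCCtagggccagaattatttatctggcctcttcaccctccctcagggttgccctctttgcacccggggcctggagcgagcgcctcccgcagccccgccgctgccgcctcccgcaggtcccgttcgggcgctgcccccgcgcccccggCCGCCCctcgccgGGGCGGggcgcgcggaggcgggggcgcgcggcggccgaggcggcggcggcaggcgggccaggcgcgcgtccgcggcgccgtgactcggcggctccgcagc
Mmp14 (chr14:54431348-54431647, plus strand): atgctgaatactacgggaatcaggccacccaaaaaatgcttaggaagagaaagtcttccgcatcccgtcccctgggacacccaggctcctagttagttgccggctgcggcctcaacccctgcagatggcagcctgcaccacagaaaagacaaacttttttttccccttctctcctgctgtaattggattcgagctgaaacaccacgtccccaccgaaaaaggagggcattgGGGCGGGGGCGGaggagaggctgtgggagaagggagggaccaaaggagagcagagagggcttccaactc
Of these 4 only Adamts1 held a TATA box, at -32 to -27 from its start, next to a GC box at -25 to -20. All 4 held GC boxes, and none held an AP-1 site in this window. The 1 window for Adam8 in the table starts inside the annotated gene and is not shown. In the whole table, 35.7% of 32851 promoters held the GC box, 13.6% the TATA box and 7.81% the AP-1 site.

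A different arrangement was found at the MMP cluster on chromosome 9, whose measured genes were scarce here. Mmp13, Mmp12, Mmp3, Mmp10, Mmp27 and Mmp20 lie there in this order, between 7272514 and 7674968. Mmp8, 2.91 kb from Mmp27, and Mmp1b, which overlaps Mmp12, were not among the genes measured. Mmp3 (stromelysin) had 6, 6, 2 and 3 counts under shear stress, against 7, 8, 4 and 1 counts in static culture. The collagenase gene Mmp13 had 2, 8, 0 and 4 counts, against 11, 17, 6 and 5 counts. Neither was called, also without a filter (adjusted p = 0.636 and 0.0873). Mmp10 had 5, 2, 2 and 7 counts under shear stress, against 0, 1, 1 and 1 counts in static culture, and was not called (adjusted p = 0.0676). Mmp12, the macrophage elastase, averaged 0.297 ± 0.276 CPM under shear stress and 0.112 ± 0.105 CPM in static culture (adjusted p = 0.258), Mmp20, the enamel protease, had 1 count in 1 static library, and Mmp27 averaged 0.0850 ± 0.0354 CPM under shear stress and 0.236 ± 0.265 CPM in static culture (adjusted p = 0.246). Of the 6 measured genes, 5 had a promoter with a match to TGANTCA followed by TATAAA. The match read TGAATCA for Mmp20 and TGAGTCA or TGACTCA for the others. These 5 promoters are shown from 100 bases before to 20 bases after the RefSeq start, with the same capitals. The Mmp12 start shown lies inside the annotated gene, and the Mmp12 promoter at the annotated gene start (7344147 to 7344446) held neither element. From the start shown, TATAAA lay at -29 to -24 for Mmp10, -16 to -11 for Mmp13 and -7 to -2 for Mmp3. It lay at -58 to -53 for Mmp20 and, after the start, at 5 to 10 for Mmp12.
Mmp3 (chr9:7445722-7445841, plus strand): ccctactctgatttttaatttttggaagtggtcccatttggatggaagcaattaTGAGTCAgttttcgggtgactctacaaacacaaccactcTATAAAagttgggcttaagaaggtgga
Mmp10 (chr9:7502242-7502361, plus strand): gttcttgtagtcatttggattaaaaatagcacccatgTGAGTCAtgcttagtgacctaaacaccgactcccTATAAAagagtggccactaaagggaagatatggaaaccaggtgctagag
Mmp12 (chr9:7347274-7347393, plus strand): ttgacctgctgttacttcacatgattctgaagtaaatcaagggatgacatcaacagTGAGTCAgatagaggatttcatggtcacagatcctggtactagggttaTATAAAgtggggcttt
Mmp13 (chr9:7272414-7272533, plus strand): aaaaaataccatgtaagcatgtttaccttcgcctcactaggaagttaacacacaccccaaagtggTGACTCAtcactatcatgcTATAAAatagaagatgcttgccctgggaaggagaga
Mmp20 (chr9:7628131-7628250, plus strand): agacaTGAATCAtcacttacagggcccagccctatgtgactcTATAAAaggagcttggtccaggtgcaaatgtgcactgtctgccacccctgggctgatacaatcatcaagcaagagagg
Over all members with a promoter in the table, the AP-1 site was found for 0 of 13 tested and 7 of 29 untested genes, the TATA box for 1 of 13 and 7 of 29, and the GC box for 12 of 13 and 15 of 29. The cyclic AMP element (TGACGTCA) and the CArG box were in none, and the TEAD site (GGAATG) was in 4 of 42. Among the promoters of all genes tested here, 5.21% held the AP-1 site, 7.48% the TATA box and 61.5% the GC box. A match is a match of letters in this window and not evidence of binding.

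Genes that activate, carry or inhibit these proteases were listed next to the members. Of 23 such genes, 20 were tested, 5 were higher, 5 lower and 10 not called, a share of calls near the 48.6% over all genes, with a median log2 fold change of -0.09 against -0.01 for all genes. The tetraspanin gene Tspan14, whose protein carries ADAM10 to the surface, rose 1.91-fold, averaging 47.9 ± 5.51 CPM under shear stress and 25.0 ± 4.91 CPM in static culture (adjusted p = 0.00108). Tspan33, another tetraspanin of this group, fell 2.07-fold, with 2.85 ± 0.358 CPM under shear stress and 5.90 ± 0.298 CPM in static culture (adjusted p = 0.000979). On the ADAM17 side, Rhbdf1, the gene of iRhom1, which brings ADAM17 to the surface, fell 1.67-fold, with 56.5 ± 3.50 CPM under shear stress and 94.4 ± 11.2 CPM in static culture (adjusted p = 0.00052). The related gene Rhbdf2 was not called, with 68.3 ± 14.8 CPM under shear stress and 66.9 ± 11.1 CPM in static culture (adjusted p = 0.895). The urokinase gene Plau, which starts the plasmin cascade that activates MMPs, rose 6.7-fold to a low 5.22 ± 3.10 CPM, against 0.759 ± 0.468 CPM in static culture (adjusted p = 0.00269). Furin, the convertase that activates many of these precursors, averaged 243 CPM under shear stress and 269 CPM in static culture and was not called (adjusted p = 0.406). Plat and Reck were among the others called higher, and Pcsk7, Plg and Frmd8 were the others called lower. With library totals 3 genes of the list were called lower in place of 5, where 1539 of all 11747 genes tested were lower in place of 2783.

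Membrane proteins known to be shed by ADAMs were listed as well. Of 32, 25 were tested, 9 were higher, 5 lower and 11 not called, a share of calls near the 48.6% over all genes, with a median log2 fold change of 0.25 against -0.01 for all genes. The TNF receptor gene Tnfrsf1b rose 2.17-fold, with 60.8 ± 5.07 CPM under shear stress and 28.1 ± 4.88 CPM in static culture (adjusted p = 0.000225). Notch2, an ADAM10 substrate, rose 1.72-fold, with 137 ± 14.7 CPM under shear stress and 79.7 ± 6.46 CPM in static culture (adjusted p = 0.000371). Its ligand gene Dll1 fell 6.09-fold, to 1.26 ± 0.539 CPM under shear stress, against 7.73 ± 2.42 CPM in static culture (adjusted p = 0.000344). The interleukin 6 receptor gene Il6ra fell 2.15-fold, with 8.17 ± 0.428 CPM under shear stress and 17.6 ± 2.32 CPM in static culture (adjusted p = 0.000229). Icam1, an adhesion molecule, fell 3.27-fold, with 31.2 ± 9.84 CPM under shear stress and 102 ± 18.0 CPM in static culture (adjusted p = 0.000484). Also called higher were Hbegf, Btc, Notch1, Cdh1, Cd44, Sdc1 and Sdc4, and lower Tnfrsf1a and Mertk. With library totals 15 were called higher in place of 9, where 4157 of all 11747 genes tested were higher in place of 2924.

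**Figure D4:**
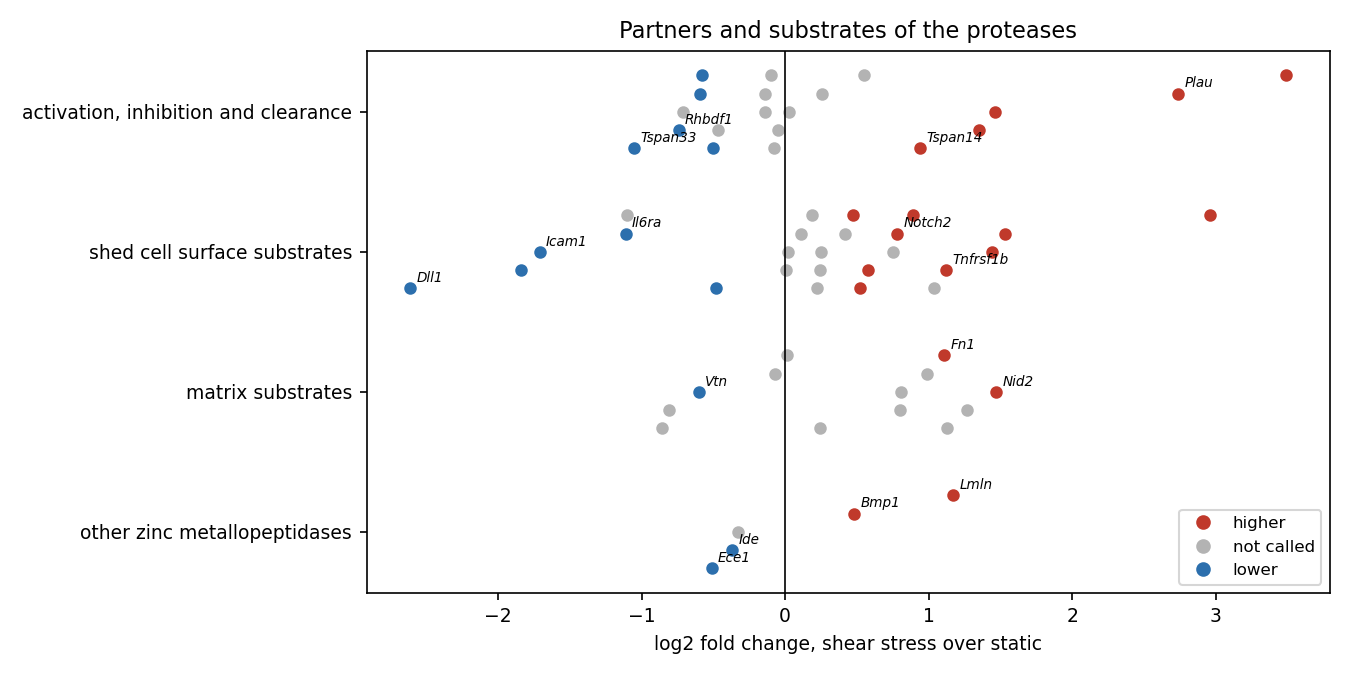
Log2 fold change of shear stress over static (horizontal axis) for the tested genes of 4 lists, 1 point a gene, with red for genes called higher, blue for genes called lower and grey for genes not called. Labels mark genes described in the text. Higher and lower calls occur in each list, from Dll1 at -2.61 to Plat at 3.49.

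Of 29 matrix proteins that these proteases cut, 13 were tested, 2 were higher, 1 was lower and 10 were not called, where 48.6% of all genes were called, and the median log2 fold change was 0.80 against -0.01 for all genes. Fibronectin, Fn1, rose 2.15-fold, with 2690 ± 797 CPM under shear stress and 1250 ± 240 CPM in static culture (adjusted p = 0.00268). The basement membrane gene Nid2 rose 2.76-fold, with 5.46 ± 2.28 CPM under shear stress and 1.97 ± 0.938 CPM in static culture (adjusted p = 0.019, and 0.054 without shear stress replicate 4). Vitronectin, Vtn, a plasma protein of the liver, fell 1.51-fold, with 1108 ± 125 CPM under shear stress and 1674 ± 252 CPM in static culture (adjusted p = 0.00504). With the replicate block 7 were higher and 3 lower, where 30.1% of all genes were higher, 31.0% lower and 61.1% called in either direction. Without shear stress replicate 2 there were 5 rises, without shear stress replicate 4 there was 1 rise, and without shear stress replicate 3 there were 2 falls. The proteoglycan genes Vcan and Ncan and the fibrillar collagen genes Col1a1 and Col3a1 were too scarce to be tested. Vcan was at 0.373 CPM under shear stress and 0.444 CPM in static culture. The proteoglycan genes Hspg2, Dcn and Bgn and the collagen genes Col4a1 and Col4a2 were tested and not called. Col4a1 averaged 78.5 CPM under shear stress and 32.4 CPM in static culture (adjusted p = 0.0530, edgeR). With the replicate block Hspg2, Col4a1 and Col4a2 were called higher, Dcn was called lower and Bgn was not called. Of 15 other zinc metallopeptidases, 13 were in the files and 5 were tested. Of these 5, 2 rose, 2 fell and 1 was not called, where 48.6% of all genes were called. Their median log2 fold change was -0.33, against -0.01 for all genes. Bmp1, the procollagen C-proteinase, rose 1.39-fold, with 157 ± 14.9 CPM under shear stress and 113 ± 6.33 CPM in static culture (adjusted p = 0.00289), and Lmln rose 2.25-fold to 6.53 ± 1.29 CPM, against 2.91 ± 0.425 CPM (adjusted p = 0.0014). The insulin-degrading enzyme gene Ide fell 1.29-fold, with 134 ± 2.16 CPM under shear stress and 173 ± 12 CPM in static culture (adjusted p = 0.00456), and Ece1, the endothelin-converting enzyme gene, fell 1.42-fold, with 50 ± 5.40 CPM under shear stress and 71.2 ± 15.7 CPM in static culture (adjusted p = 0.0228). Neither fall was called with library totals (adjusted p = 0.248 and 0.156), and that of Ece1 was lost without shear stress replicate 1 (0.0705) or 4 (0.0579).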

How the data were processed

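Per the file headers, each library has 1 deposited value per gene (17276 genes) of estimated counts, of TPM and of FPKM. The estimated counts, TPM and FPKM were computed by the authors. The submitters' processing notes name HISAT, Bowtie2, RSEM and GRCm38 (mm10). Their versions, the annotation and the strand setting are not stated there. Between 9.31% and 10.7% of the counts per library were not whole (tolerance 1e-09). They were rounded, filtered with filterByExpr (11747 genes kept), scaled with TMM and tested in R 4.3.3 by the robust quasi-likelihood functions of edgeR 4.0.16, without pairing. Adjusted p-values are Benjamini-Hochberg values over all genes tested. CPM values are relative to the TMM-scaled library size, TPM is the authors' deposited value, and FPKM entered 2 alternatives with limma 3.58.1 (pseudocounts 0.1 and 1). DESeq2 1.42.0 was another alternative. Fits were tested on simulated data.

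The members, all lists and the naming rule were chosen with earlier results of these data known. The rule gives every library's value for called members with a mean of at least 1 CPM in either group, for the Timp genes, and for Adam9, Adam10, Adam17, Adam15, Mmp2, Mmp9, Mmp14, Mmp15 and Adamts13. Of each pathway list it gives up to 5 called genes by smallest p with a mean of at least 5 CPM in either group. Other genes given with values, such as further scarce members, overlapping genes, Furin, Rhbdf2 and Vcan, were chosen after their values were seen. Some items that the rule selects are not reported here. Libraries of the same replicate number correlated after removal of the group means (r = 0.679, 0.642, 0.56 and 0.467, against at most -0.018 for different numbers), so the numbers pair the libraries, although no label explains the numbers. The main fit leaves this pairing out, so calls given without mention of the block are those of the unpaired fit. With the block 5 genes that activate, carry or inhibit the proteases were higher and 7 lower, and 12 shed substrates were higher and 6 lower. Over all genes the block called 30.1% higher and 31.0% lower. No 2 libraries of a group agreed within sampling noise (chi-square per degree of freedom at least 45.2). Promoters came from RefSeq (42 of 65 members matched), positions from RefSeq and neighbours from GENCODE, all on GRCm38.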

Additional observations from a re-analysis of the deposited data

Results flagged for a closer look

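In 40 groups of 4 libraries (20 tested members), 3 had a lowest or highest library set apart from the other 3 by Dixon's test, which flags about 1 group in 20 by chance. Adamts1 in shear stress replicate 4 was at 35.8 CPM, and the other shear stress libraries were between 48.9 and 49.6 CPM, which puts it farther from the static range. Adamtsl4 in shear stress replicate 1 was at 10 CPM, with the others between 3.17 and 4.28 CPM. Adamts6 in static replicate 2 was at 7.04 CPM, with the others between 2.05 and 2.77 CPM.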

How the results depend on the processing

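The rises of Adam10, Adam8 and Mmp24 and the fall of Adamts1 were called in every alternative. Adamts10 passed the main filter on low counts in 4 shear stress but only 2 static libraries, and was not tested under the stricter filter (1 CPM in 4 libraries). It was called higher in the alternatives that tested it. Members called lower numbered 1 with upper quartile factors, library totals or FPKM with either pseudocount, in place of 3. Without a filter 7 members were higher and 7 lower. Leaving out 1 library gave 4 to 6 members higher and 2 to 4 lower, but of 21 to 23 members tested in place of 20. Some of these calls were of Adam12, Mmp9 or Mmp25, which the main fit did not test. Each of these genes was near 0 in 1 group and passed the filter only through the other. Over all genes, those called lower numbered 1539 with library totals, 1669 and 1662 with FPKM (pseudocounts 0.1 and 1) and 2783 with TMM. The split of higher and lower calls was 2924 and 2783 with TMM and 4157 and 1539 with library totals. With the replicate block 7176 genes were called in place of 5707.

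Lower genes of activation, inhibition and clearance numbered 3 with library totals and with FPKM at either pseudocount, and higher genes among shed substrates 15 in these fits. Higher matrix substrates numbered 4 with upper quartile factors, 6 with library totals, 5 with DESeq2, 7 with FPKM at either pseudocount, 7 with the replicate block and 1 to 5 without 1 library, while lower ones numbered 3 with the replicate block and 1 to 2 without 1 library. Lower genes among the other metallopeptidases numbered 1 with upper quartile factors and 0 with library totals and FPKM at either pseudocount. Over all genes, higher calls numbered 3652 with upper quartile factors, 3051 with DESeq2 and 4257 and 4248 with FPKM (pseudocounts 0.1 and 1). Lower calls over all genes numbered 1982 with upper quartile factors. Without 1 library, 2436 to 2841 of all genes were higher and 2224 to 2681 lower.

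Mmp14 and Mmp15, not called in any fit, changed sign: Mmp14 to -0.00093 with RLE factors, -0.0012 with DESeq2 and -0.0022 without a filter, and Mmp15 to -0.0011 with DESeq2, -0.0042 without a filter and -0.07 with the replicate block. Without 1 library Mmp14 lay between -0.05 and 0.06 and Mmp15 between -0.51 and 0.25. The block otherwise changed only the calls of Adamtsl5 and Mmp19 among members. The cause of these shifts was not tested.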
